A study of Homo sapiens with 6 samples.

Results

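Expression of 10 genes of the pericellular serine protease system was compared in OVCAR5 cells with and without METTL3 overexpression. OVCAR5 is a human cell line that the paper uses as an ovarian cancer model. The genes were chosen by name and comprise 6 kallikreins (KLK5, KLK6, KLK7, KLK8, KLK10 and KLK11), the membrane-bound proteases ST14 and PRSS8, and the inhibitors SPINT1 and SPINT2. All 10 were found among the 60649 gene rows of the count table after their identifiers were matched to GENCODE release 44. METTL3 is the catalytic subunit of the complex that writes N6-methyladenosine (m6A) on RNA, and it was delivered in a lentiviral pCDH vector. The control cells were transduced in parallel with empty-vector lentivirus, and both kinds of cells were selected with puromycin as stable lines. Sequencing covered the poly(A) RNA of 3 libraries with METTL3 and 3 with the vector, and the labels name no drug treatment for them. One part of the labels calls the controls parental. No source describes the replicates as separate cultures, so the p-values below measure a spread between libraries that may be technical, and all libraries of a group came from cells with the same transduction history.

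Kallikreins are secreted trypsin- or chymotrypsin-like proteases that are made as inactive precursors and activate one another in cascades, and their genes lie side by side on the long arm of chromosome 19. Several of them are raised in ovarian carcinoma and are shed into ascites and serum. Matriptase, the product of ST14, spans the plasma membrane of epithelial cells, and prostasin, the product of PRSS8, is held there by a lipid anchor. HAI-1 and HAI-2, the products of SPINT1 and SPINT2, are membrane-bound Kunitz-type inhibitors that block both proteases.

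Promoter sequence is shown for the gene with the largest difference between the groups, SPINT1, and for the kallikrein neighbours KLK6 and KLK7, of which the first was well expressed and the second barely. Each window is the 250 bases before a transcription start in RefSeq (GRCh38.p14), written 5′ to 3′ on the strand of the gene. The windows lie at chr15:40843798-40844047 (forward strand, SPINT1), chr19:50969592-50969841 (reverse strand, KLK6) and chr19:50984065-50984314 (reverse strand, KLK7). Capitals mark the GC box GGGCGG or its reverse complement CCGCCC.
SPINT1: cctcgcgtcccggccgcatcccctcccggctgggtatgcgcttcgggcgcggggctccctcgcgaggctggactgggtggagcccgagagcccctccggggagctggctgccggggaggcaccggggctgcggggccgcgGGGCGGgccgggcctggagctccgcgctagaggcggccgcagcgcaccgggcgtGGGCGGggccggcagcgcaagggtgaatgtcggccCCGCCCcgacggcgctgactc
KLK6: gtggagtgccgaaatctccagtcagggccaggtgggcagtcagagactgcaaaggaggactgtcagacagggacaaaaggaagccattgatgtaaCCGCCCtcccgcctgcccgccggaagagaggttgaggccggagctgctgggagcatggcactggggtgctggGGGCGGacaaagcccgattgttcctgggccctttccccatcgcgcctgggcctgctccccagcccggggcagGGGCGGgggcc
KLK7: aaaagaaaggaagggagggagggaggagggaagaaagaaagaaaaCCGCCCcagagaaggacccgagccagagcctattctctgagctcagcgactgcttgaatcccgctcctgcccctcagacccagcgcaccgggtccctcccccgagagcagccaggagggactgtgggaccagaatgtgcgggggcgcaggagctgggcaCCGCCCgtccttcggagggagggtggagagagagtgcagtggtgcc

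The RefSeq table held windows for 6 of the 10 genes, which were KLK5, KLK6, KLK7, KLK10, KLK11 and SPINT1. A GC box on either strand occurred in 42.6% of the 35116 promoter windows of the table. The SPINT1 and KLK6 windows shown each held 3 such boxes and the KLK7 window shown 2. The further windows of these genes held 0 in SPINT1 and 2 and 1 in KLK7. Boxes were thus present in both the expressed KLK6 and the barely expressed KLK7, with more in the KLK6 window than in any KLK7 window. Neither KLK10 window and not the KLK5 window held one, although KLK10 was expressed and KLK5 was not detected in 3 of the libraries. The windows of KLK11, which was also expressed, held 0 and 3. Neighbouring KLK7 windows overlap, so some of their boxes were counted more than once. The GC content was 80.4% in the SPINT1 window shown, 70.4% in the other SPINT1 window and 66.8% in the KLK6 window, against a median of 58.0% over all windows. It was 64.0%, 67.2% and 61.2% in the KLK7 windows and 64.8% in the KLK5 window. The KLK10 windows had 59.2% and 62.8%, and the KLK11 windows 58.4% and 69.6%. The TATA motif TATAAA, found in 10.7% of all windows, and the grainyhead motif AACNGGTT, found in 1.49%, were in none of the 11 windows of these genes. The E-box CACCTG, on either strand, was found in 17.5% of all windows, and it occurred in the KLK6 window, in 1 of 3 KLK7 windows, in 1 of 2 KLK11 windows and in the SPINT1 window not shown. These matches describe letters in a window and are not binding data.

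Depth was similar in all libraries, with total counts from 96633925 to 125463386. METTL3, which checks the labels, stood at 152 to 175 CPM (counts scaled to a common library size by TMM) with METTL3 and at 68.6 to 80.6 CPM with the vector, with no overlap. Its log2 fold change was 1.16 (SE 0.12), with an adjusted p of 0.072 in the quasi-likelihood test of edgeR. Replicate 1 of both groups is known to lie apart from the other 4 libraries, so fits are given with and without it. For the 7 genes tested here, replicate 1 exceeded the mean of the other replicates by 0.10 (KLK6) to 0.91 (KLK11) on the log2 scale with METTL3, and by -0.19 (SPINT1) to 0.77 (SPINT2) with the vector. Of the epithelial markers EPCAM, CDH1, KRT7, KRT8, KRT18, KRT19, CLDN4 and MUC1, all 8 were above 1 CPM in every library. Even numbers made up 67.6% to 70.5% of the counts between 1 and 20, as counting of both mates of a pair would give, and counts were therefore also tested after division by 2.

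The membrane proteases and the inhibitors were abundant and the kallikreins fell into an expressed and a nearly silent group. Levels were compared per length of merged exons as TPM (read counts per kilobase, scaled to the same sum in every library). ST14 stood first with a mean of 475 TPM over the 6 libraries, which placed it at the 98.7th percentile of the 22038 genes that passed the filter on low counts. SPINT1 followed at 259 TPM, SPINT2 at 109 TPM and PRSS8 at 60.3 TPM. Each of the first 3 exceeded the next in all 6 libraries, although their ranges over the libraries overlapped. PRSS8 and KLK6, at 44.8 TPM, could not be ordered, since PRSS8 was above KLK6 in 3 of the libraries. KLK6, also called neurosin, ranged from 40.05 to 51.9 TPM and lay above the whole range of KLK11. KLK11 (21.0 TPM) and KLK10 (17.25 TPM) overlapped each other and lay far above KLK8, at 0.174 TPM. KLK7 was at 0.1045 TPM and KLK5 at 0.0445 TPM, and these last 3 genes also overlapped. The filter was passed by 7 of the 10 genes, all but KLK5, KLK7 and KLK8.

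**Figure D1:**
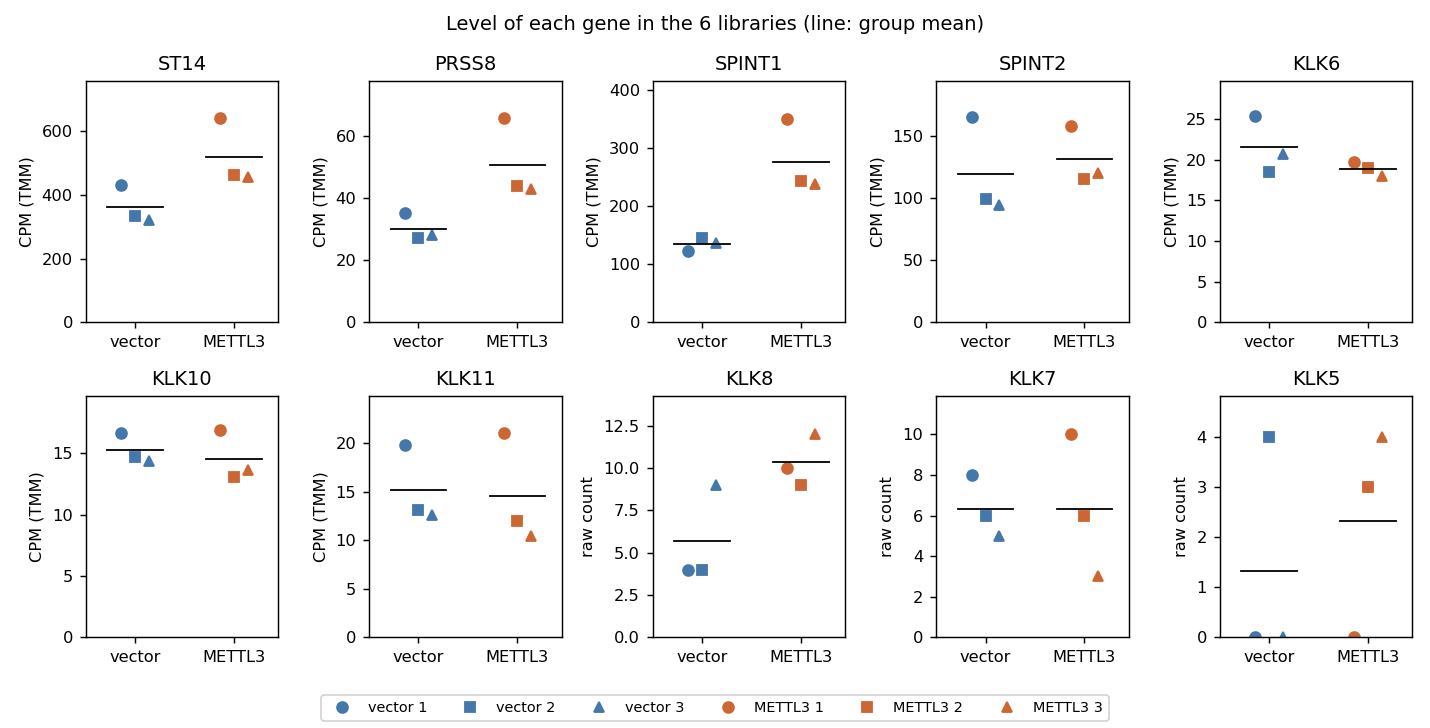
Level of each gene in the 6 libraries, in CPM scaled by TMM for the 7 tested genes and as raw counts for KLK8, KLK7 and KLK5, with circles, squares and triangles for replicates 1, 2 and 3 and a line at each group mean. ST14, PRSS8 and SPINT1 lie higher in every METTL3 library than in every vector library, and the other 7 genes overlap.

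ST14, PRSS8 and SPINT1 were higher in each METTL3-overexpressing library than in each vector control library, and the kallikreins and SPINT2 were not. Among the 7 tested genes, 3 did not overlap between the groups with METTL3 higher, against 8.47% of all tested genes, and 0 did so with METTL3 lower, against 8.93%. By edgeR's quasi-likelihood test on all 6 libraries, 0 of the 7 had an adjusted p-value under 0.05, and the share over all tested genes was also 0%. The same 3 genes had an unadjusted p-value under 0.05, against 8.3% of all tested genes, 4.4% higher and 3.91% lower with METTL3. DESeq2 called PRSS8 and SPINT1 on the same libraries, against 1.27% of all tested genes, and edgeR without the filter on low counts called ST14 as well, against 1.3%. Without vector replicate 1, edgeR called none of the 7, against 1.62% of the genes tested. The exact permutation test over the 6 libraries gave p = 0.1 (two-sided) for each of the 3 genes, the smallest value that 3 against 3 allows. In bulk RNA, fewer cells that express a gene and less RNA per cell cannot be told apart.

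ST14 (ENSG00000149418.11, GRCh38 chromosome 11, 130159782 to 130210362, forward strand) encodes matriptase, which activates pro-HGF, pro-urokinase and prostasin at the cell surface. It was at 644, 465 and 456 CPM in METTL3 replicates 1, 2 and 3 and at 433, 336 and 323 CPM in the vector replicates. Replicate 1 was the highest library of each group, and the lowest METTL3 library exceeded the highest vector library by little. The means were 521 ± 106 and 364 ± 60.3 CPM (SD, n = 3 each). The fitted fold was 1.43 (95% interval 1.08 to 1.91), a log2 fold change of 0.52 with an SE of 0.18 (adjusted p = 0.547 from edgeR's test). Within replicate numbers 1, 2 and 3 the log2 difference was 0.57, 0.47 and 0.50. In replicates 2 and 3 alone the fold was 1.396 (95% interval 1.29 to 1.51, adjusted p = 1.6e-05 from edgeR's test).

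PRSS8 (ENSG00000052344.16, GRCh38 chromosome 16, 31131433 to 31135727, reverse strand) encodes prostasin, a partner of matriptase that activates the epithelial sodium channel. Its level was 65.7, 43.8 and 43.0 CPM in METTL3 replicates 1, 2 and 3 and 35.1, 27.1 and 28.1 CPM in the vector replicates. As for ST14, replicate 1 was the highest of each group and the groups stayed apart. The means were 50.85 ± 12.9 and 30.1 ± 4.36 CPM (SD, n = 3 each), a fold of 1.69 (95% interval 1.25 to 2.29) and a log2 fold change of 0.76 with an SE of 0.19 (adjusted p = 0.412 from edgeR's test). The difference was 0.90, 0.69 and 0.62 on the log2 scale within replicate numbers 1, 2 and 3. Without replicate 1 of either group the fold was 1.57 (95% interval 1.44 to 1.72, adjusted p = 5.57e-06 from edgeR's test). Its adjusted p from DESeq2 was 0.0248 over the 6 libraries.

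SPINT1 (ENSG00000166145.15, GRCh38 chromosome 15, 40844018 to 40858207, forward strand) encodes HAI-1, the principal inhibitor of matriptase in epithelia. It was at 350.0, 243 and 237.5 CPM in METTL3 replicates 1, 2 and 3 and at 123, 144.5 and 136.5 CPM in the vector replicates. Here the replicate 1 libraries went opposite ways, since replicate 1 was the highest METTL3 library and the lowest vector library. The means were 277 ± 63.35 and 135 ± 10.6 CPM (SD, n = 3 each), a fold of 2.05 (95% interval 1.57 to 2.69). The log2 fold change of 1.04 (SE 0.17) was the largest of the 7 tested genes, with an unadjusted p of 0.000241 and an adjusted p of 0.289 from edgeR's test and an adjusted p of 5.0e-05 from DESeq2. The log2 difference was 1.503 within replicate 1, 0.75 within replicate 2 and 0.80 within replicate 3. In replicates 2 and 3 the fold was 1.71 (95% interval 1.58 to 1.85, adjusted p = 3.9e-07 from edgeR's test). The antisense gene SPINT1-AS1 shares 2.8% of the exonic bases of SPINT1 and held 207 to 538 counts, against 11707 to 39481 counts for SPINT1.

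SPINT2 (ENSG00000167642.13, GRCh38 chromosome 19, 38244035 to 38292615, forward strand) encodes HAI-2, an inhibitor found mostly inside the cell that acts on matriptase and prostasin. It was at 159, 116 and 121 CPM in METTL3 replicates 1, 2 and 3 and at 166, 99.1 and 94.9 CPM in the vector replicates. The groups overlapped because vector replicate 1 was the highest of all libraries, while METTL3 replicates 2 and 3 lay above vector replicates 2 and 3. The fold on all 6 libraries was 1.098 (95% interval 0.763 to 1.58, adjusted p = 0.873 from edgeR's test), so a rise of up to 1.58-fold was within the interval. In replicates 2 and 3 it was 1.22 (95% interval 1.124 to 1.32, adjusted p = 0.00215 from edgeR's test). The direction turned within replicate 1, where the log2 difference was -0.06, against 0.22 and 0.34 within replicates 2 and 3.

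In replicates 2 and 3 of each group, edgeR's quasi-likelihood test thus called ST14, PRSS8, SPINT1 and SPINT2, all higher with METTL3. That is 4 of the 7 tested genes, against 15.2% of the 22046 genes tested there, 6.66% higher and 8.59% lower. DESeq2 called the same 4 genes in these libraries, against 14.7%, as did edgeR with the replicate number as a block, against 24.7%. These calls rest on the spread between 2 libraries per group. The epithelial markers moved in the same direction there, with 8 of 8 called higher. Their summed level was 7857 to 8865 CPM in the METTL3 libraries and 6318 to 9760 CPM in the vector libraries, of which vector replicate 1 was the highest. The part of epithelial gene content in the higher levels of the 4 genes was not tested.

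**Figure D2:**
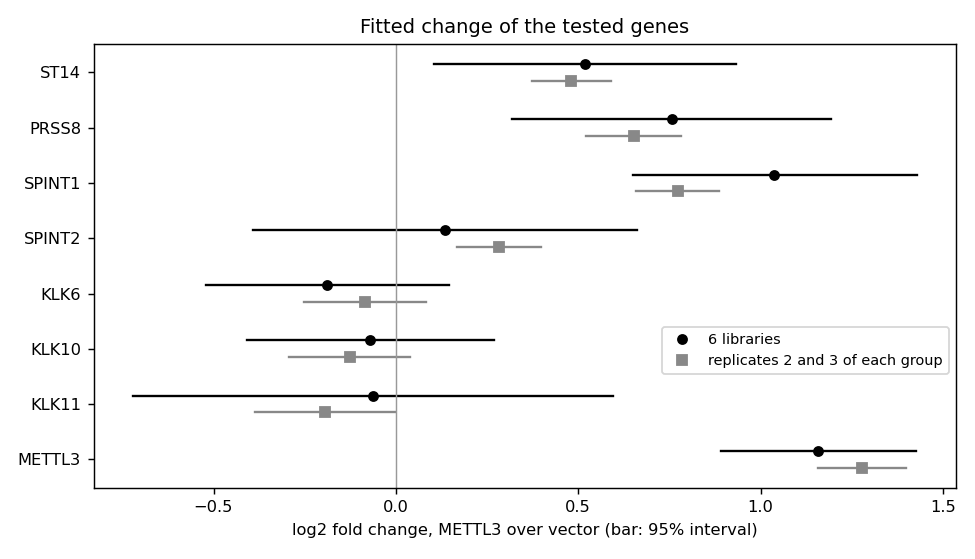
Fitted log2 fold change, METTL3 over vector, of the 7 tested genes and of METTL3, with bars for the 95% interval, from all 6 libraries (black circles) and from replicates 2 and 3 of each group (grey squares). The intervals of ST14, PRSS8 and SPINT1 lie above 0 in both fits, that of SPINT2 above 0 in replicates 2 and 3, and those of the 3 kallikreins include 0 on all 6 libraries.

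Because the proteases and their inhibitors differed between the groups by unequal amounts, their ratios were computed per library from TPM. The ratio of ST14 to SPINT1 was 1.58, 1.64 and 1.65 in METTL3 replicates 1, 2 and 3 and 3.02, 2.00 and 2.04 in the vector replicates. It was lower in every METTL3 library, and the METTL3 libraries were closer to one another than the vector libraries were. Against SPINT2 the ratio went the other way, with ST14 at 5.02, 4.96 and 4.67 times SPINT2 with METTL3 and at 3.23, 4.19 and 4.201 times with the vector. PRSS8 to SPINT2 was also higher in every METTL3 library, at 0.708, 0.647 and 0.610 against 0.362, 0.468 and 0.505. PRSS8 to SPINT1 overlapped between the groups, at 0.215 to 0.224 with METTL3 and 0.2235 to 0.339 with the vector. The ratio of the inhibitors themselves, SPINT1 to SPINT2, was 3.17, 3.02 and 2.83 with METTL3 and 1.07, 2.09 and 2.06 with the vector. The summed proteases stood at 1.37 to 1.395 times the summed inhibitors with METTL3 and at 1.505 to 1.74 times with the vector. Each ratio whose groups did not overlap gave p = 0.1 in the two-sided exact permutation test. Any full separation of 3 against 3 gives this smallest possible value, so it adds nothing to the lack of overlap. PRSS8 to SPINT1, which overlapped narrowly, gave p = 0.2 in the same permutation test. How often ratios of other genes separate the groups was not computed. These are ratios of RNA, and protein or activity was not measured.

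**Figure D3:**
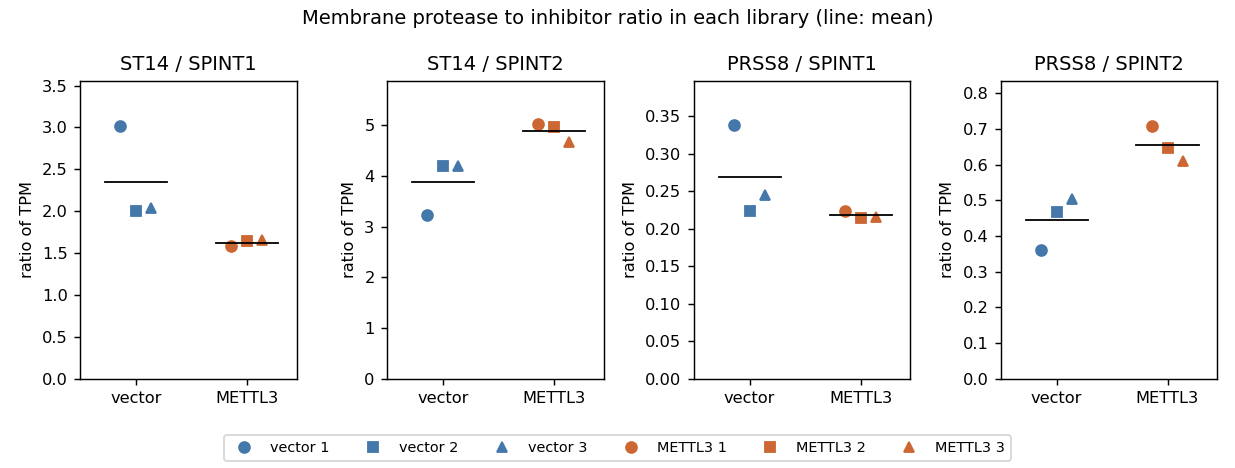
Ratio of the TPM of a membrane protease to that of an inhibitor in each library, with a line at the group mean and circles, squares and triangles for replicates 1, 2 and 3. ST14 to SPINT1 is lower in all METTL3 libraries (at most 1.65 against at least 2.00), ST14 to SPINT2 and PRSS8 to SPINT2 are higher in all of them, and PRSS8 to SPINT1 overlaps.

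The expressed kallikreins showed no difference between the groups beyond the spread between libraries. KLK6 (ENSG00000167755.15, GRCh38 chromosome 19, 50958631 to 50969673, reverse strand) encodes a trypsin-like protease studied as an ovarian cancer serum marker. It was at 19.7, 19.0 and 17.95 CPM in METTL3 replicates 1, 2 and 3 and at 25.4, 18.5 and 20.65 CPM in the vector replicates. Vector replicate 1 was the highest library, and vector replicate 2 lay inside the METTL3 range. The fold was 0.878 (95% interval 0.697 to 1.11, adjusted p = 0.7145 from edgeR's test) on all 6 libraries and 0.943 (95% interval 0.84 to 1.06, adjusted p = 0.55) in replicates 2 and 3.

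KLK10 (ENSG00000129451.12, GRCh38 chromosome 19, 51012739 to 51020175, reverse strand), first described as normal epithelial cell-specific 1, was at 16.9, 13.0 and 13.6 CPM with METTL3 and at 16.7, 14.7 and 14.4 CPM with the vector. The values overlapped, with replicate 1 the highest of both groups. Its fold was 0.953 (95% interval 0.754 to 1.20, adjusted p = 0.902 from edgeR's test). KLK11 (ENSG00000167757.14, GRCh38 chromosome 19, 51022216 to 51028039, reverse strand), also called hippostasin or trypsin-like serine protease, was at 21.1, 12.0 and 10.4 CPM with METTL3 and at 19.8, 13.1 and 12.6 CPM with the vector. Of the 3 expressed kallikreins it differed most between replicate 1 and the other libraries, by 0.91 on the log2 scale with METTL3 and 0.62 with the vector. Its fold was 0.958 (95% interval 0.607 to 1.51, adjusted p = 0.962 from edgeR's test), and in replicates 2 and 3 it was 0.873 (95% interval 0.765 to 0.9975, unadjusted p = 0.04635, adjusted p = 0.1755). Both fold changes changed sign when single libraries were left out. For KLK10 the fold in replicates 2 and 3 was 0.916 (95% interval 0.817 to 1.03, adjusted p = 0.326).

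KLK8, KLK7 and KLK5, which encode neuropsin and the skin-associated chymotrypsin-like and trypsin-like enzymes, were near the limit of detection. KLK8 had 10, 9 and 12 counts with METTL3 and 4, 4 and 9 counts with the vector. The ranges met at 9 counts (exact permutation test, two-sided, p = 0.2). KLK7 had 10, 6 and 3 counts with METTL3 and 8, 6 and 5 counts with the vector. KLK5 had 0, 3 and 4 counts with METTL3 and 0, 4 and 0 counts with the vector. A count of 0 allows up to 3 counts, or 0.0242 to 0.0316 CPM depending on the library, for counting error alone. This limit takes every count as a separate fragment, and it would be higher if both mates of a pair were counted. These 3 genes were below the filter and their difference was not fitted. KLK8 shares 40.1% of its exonic bases with ENSG00000269741 or KLK9 on the same strand, so reads there cannot be told apart. For KLK9 the part shared with KLK8 and ENSG00000269741 is 96.3%, so its 0 counts in all libraries say little about its level.

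The 15 kallikrein genes of the chromosome 19 cluster span 265.1 kb of GRCh38, from 50819146 to 51084245, and neighbours in it differed widely in level. KLK1, KLK6, KLK10 and KLK11 were above 1 TPM in every library, which is 4 of the 15. KLK6 lies 5.54 kb from KLK5, and KLK6 had at least 1811 counts in each library and KLK5 at most 4. KLK10 and KLK11 lie 2.04 kb apart and were both expressed. The summed kallikrein level was 104, 80.2 and 75.7 TPM in METTL3 replicates 1, 2 and 3 and 99.2, 85.1 and 87.0 TPM in the vector replicates, with overlap. KLK6, KLK10 and KLK11 together made up 91.9% to 96.0% of it in every library.

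Of the 9 other kallikreins, 2 passed the filter on low counts, and neither passed edgeR's test on all 6 libraries. KLK1, tissue kallikrein, was at 2.23, 1.88 and 1.99 CPM with METTL3 and at 1.80, 3.04 and 2.60 CPM with the vector. It was lower with METTL3 in replicates 2 and 3 (log2 fold change -0.55, adjusted p = 0.0309 from edgeR's test) but higher within replicate 1. KLK14 was below 1 TPM in every library, with 8 to 32 counts. KLK2, KLK3, KLK4, KLK12, KLK13 and KLK15 had at most 18 counts in any library, and KLK2 and KLK3 are close paralogs, so their few reads are uncertain.

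**Figure D4:**
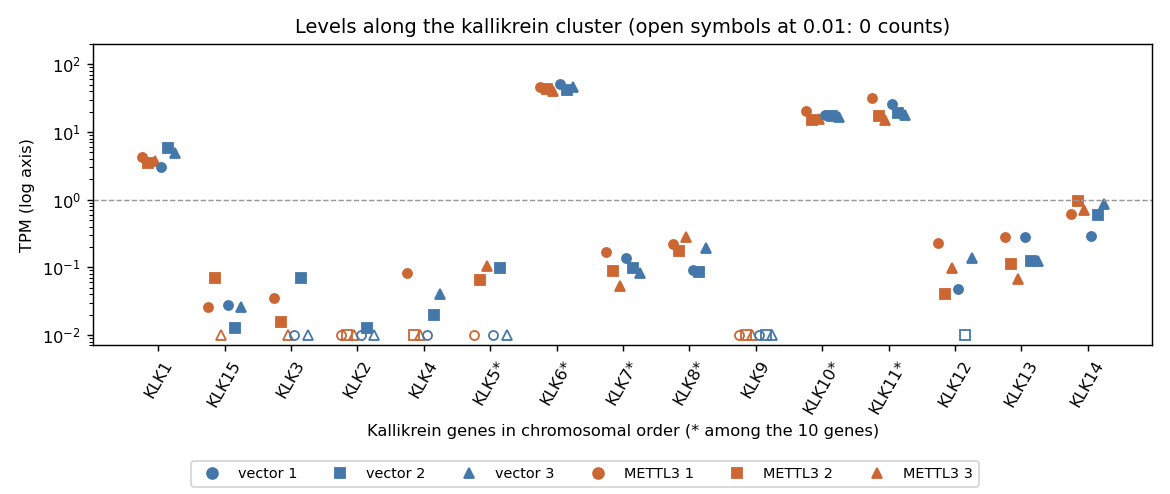
Level of the 15 kallikrein genes in TPM (log axis) in each of the 6 libraries, in the order of the genes along chromosome 19, with the dashed line at 1 TPM, open symbols at 0.01 for libraries with 0 counts and asterisks at the 6 kallikreins among the 10 genes. KLK1, KLK6, KLK10 and KLK11 lie above 1 TPM in every library, and KLK5, the neighbour of KLK6, lies near 0.1 TPM or at 0.

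Over 14683 tested genes with a mean of at least 1 CPM, those whose log2 CPM over the 6 libraries was most like that of KLK6 were ZSCAN5A (r = 0.992), OXSM (r = 0.992) and MIEN1 (r = 0.991). In all of them, as in KLK6, vector replicate 1 was the highest library. With only 6 libraries, 143 genes had an r of at least 0.95, so the likeness is a description of these libraries.

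The wider protease network was described by lists of 22 other membrane-anchored or related proteases, 18 other inhibitors, 25 substrates and receptors and a few steroid hormone receptors, none of which held a gene that passed edgeR's test on all 6 libraries. The share called over all tested genes was likewise 0%. Of the other membrane proteases, 14 were tested, with 10 fitted changes above 0 and 4 below, and a median log2 fold change of 0.20, against a median of -0.02 over all tested genes. In replicates 2 and 3 the list's median was 0.01. PRSS22, tryptase epsilon, was at 95.05, 67.3 and 76.2 CPM with METTL3 and at 71.4, 44.05 and 41.1 CPM with the vector. It was the single gene of this list called in replicates 2 and 3 (log2 fold change 0.75, adjusted p = 4.06e-06 from edgeR's test), where 15.2% of all tested genes were called. PRSS21, or testisin, TMPRSS2, TMPRSS4 and TMPRSS6, which is matriptase-2, passed in neither fit, and their log2 fold changes on all 6 libraries lay between -0.15 and 0.22, and in replicates 2 and 3 between -0.50 and 0.12.

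Of the 18 other inhibitors, 11 were tested, with 8 fitted changes above 0 and 3 below and a median log2 fold change of 0.11, which was 0.055 in replicates 2 and 3. SERPINA1, alpha-1-antitrypsin, was at 114.0, 97.7 and 97.1 CPM with METTL3 and at 74.1, 85.0 and 87.8 CPM with the vector. The groups did not overlap, and SERPINA1 was called in replicates 2 and 3 (log2 fold change 0.17, adjusted p = 0.0423 from edgeR's test). That is 1 of the 10 inhibitors tested there, against 15.2% of all tested genes. Without overlap on all 6 libraries, 1 inhibitor was higher and 1 lower, against 8.47% and 8.93% of all tested genes, and the lower, named after its values were seen, was SERPINB6 (log2 fold change -0.15). APP and APLP2, which carry a Kunitz domain in some isoforms, stood at means of 805 and 1110 TPM, above SPINT1 and SPINT2. Neither passed, and neither did TFPI, the tissue factor pathway inhibitor (log2 fold change -0.22, and -0.13 in replicates 2 and 3), or SERPINA5, the protein C inhibitor (0.11, and -0.17 in replicates 2 and 3). SPINT3 and SPINT4, the further genes of the SPINT family, were at 0 in all libraries.

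Substrates and receptors moved in both directions. Of the 25, 18 were tested, and 9 had a fitted change above 0 and 9 below on all 6 libraries. Without overlap between the groups, 4 of the 18 were higher with METTL3 and 2 lower, against 8.47% and 8.93% of all tested genes. In replicates 2 and 3 edgeR's test called 6 higher and 5 lower, against 6.66% and 8.59% of all tested genes. CDH1, E-cadherin, was at 439, 358 and 346 CPM with METTL3 and at 201, 184 and 189 CPM with the vector. The groups did not overlap, and its log2 fold change was 0.99 on all 6 libraries (adjusted p = 0.1697 from edgeR's test) and 0.91 in replicates 2 and 3 (adjusted p = 7.46e-08). EPCAM, a substrate of matriptase, overlapped because vector replicate 1 was the highest library at 483 CPM, and it was higher in replicates 2 and 3 (log2 fold change 0.71, adjusted p = 1.67e-06 from edgeR's test).

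Named after their values were seen, since they passed, further genes called higher in replicates 2 and 3 include MST1R (the RON receptor), SCNN1A (a subunit of the sodium channel that prostasin activates) and DSG2 (a desmosomal cadherin). The genes called lower were the protease-activated receptors F2R, F2RL1 and F2RL2, the growth factor PDGFD and the matriptase substrate CDCP1. F2R (PAR1) was at 228, 223 and 211 CPM with METTL3 and at 230, 465 and 465 CPM with the vector. Vector replicate 1 thus lay just above the METTL3 libraries, so the groups did not overlap. The log2 fold change was -0.81 on all 6 libraries (adjusted p = 0.487 from edgeR's test) and -1.10 in replicates 2 and 3 (adjusted p = 2.2e-08). MET, the receptor that HGF activates once cleaved, stood at 538.5 to 649 CPM with a log2 fold change of 0.06, and PLAT, tissue plasminogen activator, had one of 0.28. In replicates 2 and 3 these were 0.09 and 0.06. Neither passed in either fit. HGF itself had at most 0.0211 CPM in any library.

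**Figure D5:**
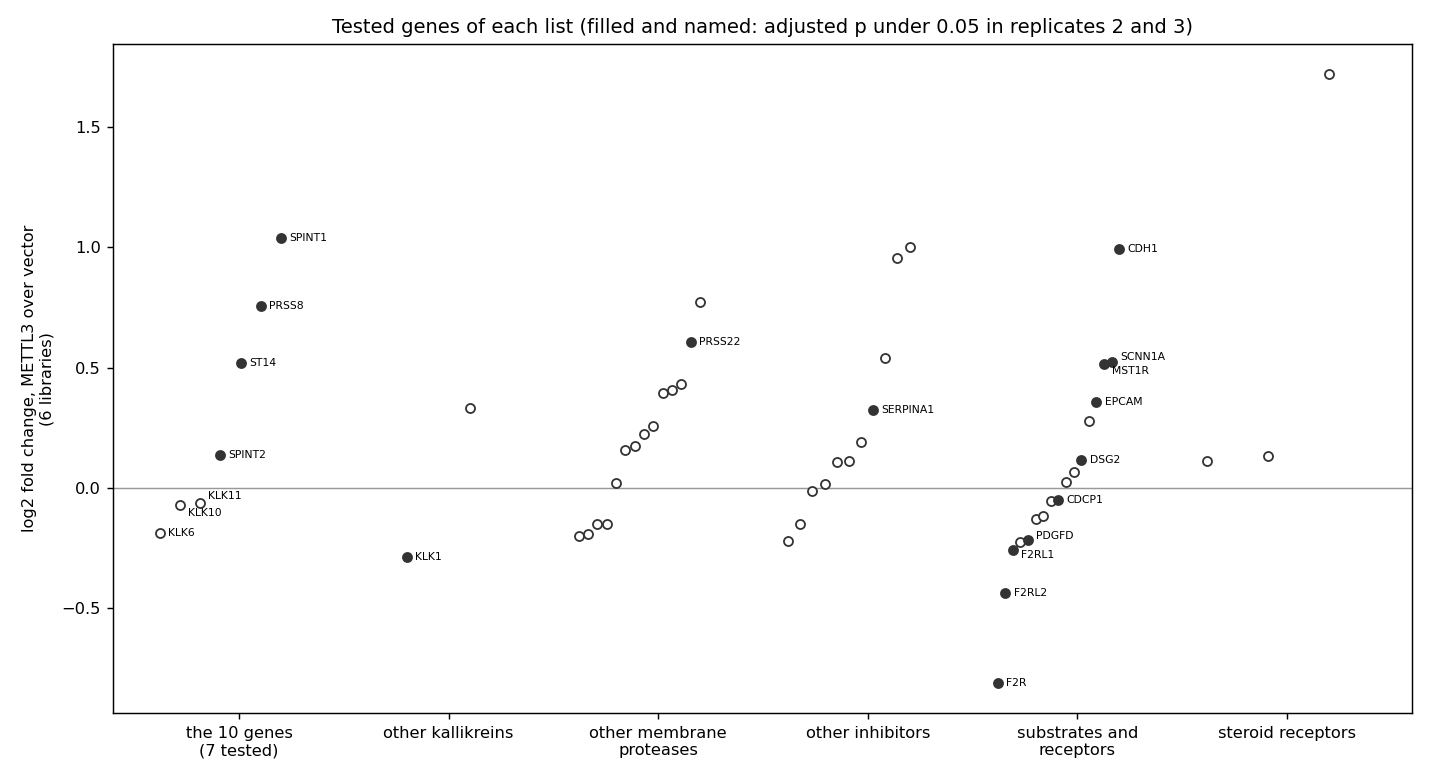
Fitted log2 fold change on all 6 libraries (vertical axis) of the tested genes reported here in the 6 groups of genes, each circle 1 gene ordered by its value, filled and named where edgeR's adjusted p was under 0.05 in replicates 2 and 3, and open otherwise (the 3 kallikreins at the left are named as well). Among the 10 genes the 4 called are ST14, PRSS8, SPINT1 and SPINT2, whereas called substrates and receptors lie on both sides of 0, from F2R at -0.81 to CDH1 at 0.99.

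Kallikrein genes are known as targets of steroid hormones in hormone-responsive tissues, so the receptors were listed beside them. NR3C1, the glucocorticoid receptor, was at 72.7 to 97.0 CPM over the libraries and overlapped between the groups (log2 fold change 0.11, and 0.09 in replicates 2 and 3). ESR1, ESR2 and PGR were under 1 CPM in every library. ESR1 was at 0.133 to 0.188 CPM with METTL3 and at 0.0362 to 0.0531 CPM with the vector (log2 fold change 1.72, adjusted p = 0.433 from edgeR's test, and 1.90, adjusted p = 0.0755, in replicates 2 and 3), a level of few counts.

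Because METTL3 methylates adenosine within a short consensus, the letters GGACT were counted in the longest GENCODE transcript of each gene, on the transcript strand. ST14 held 9, SPINT1 6, SPINT2 6, PRSS8 3 and the kallikreins 1 to 3, against a median of 3 over the tested genes. Per kilobase this was 2.72 in ST14, 1.96 in SPINT1, 1.58 in SPINT2 and 1.63 in PRSS8, against a median of 0.910. The kallikreins ranged from 0.321 in KLK10 and 0.755 in KLK8 through 1.17 in KLK6, 1.297 in KLK11 and 1.52 in KLK7 to 1.98 in KLK5. KLK5, which was near the limit of detection and not fitted, lay above SPINT1, SPINT2 and PRSS8. The other kallikreins lay below ST14, SPINT1, SPINT2 and PRSS8. Any part of this density in the RNA levels was not tested. Methylation was not measured in these libraries, and a match of letters is not a methylated site.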

How the data were processed

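The authors aligned reads to hg38 (GRCh38) with HISAT2, and the deposited table holds raw counts per gene from Subread for 60649 gene rows. The submitters' processing notes also list fastp and featureCounts. Tool versions, annotation release, strand setting and how multi-mapping reads were counted are not given in the sources used here. The paper describes single-end sequencing and an NEBNext kit, the labels sequencing from both ends and TruSeq Stranded. Identifiers were matched without version to GENCODE release 44, which named 60463 rows. Low counts were filtered with filterByExpr (edgeR 4.0.16, R 4.3.3), library sizes were adjusted by TMM, and METTL3 was tested against the vector by a robust glmQLFit followed by glmQLFTest. P-values were adjusted over all genes tested by Benjamini-Hochberg, at a threshold of 0.05. DESeq2 1.42.0 was an alternative. CPM use the TMM factors, and TPM use merged exon lengths. The functions were tested on simulated counts, which were drawn independently for each library and held no shift of replicate 1.

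The genes and lists were chosen with earlier results of these data known, as was the comparison of replicates 2 and 3. Named list genes are the 4 of highest mean TPM and the 3 of smallest p in replicates 2 and 3. The lists also cover markers of epithelial, ovarian, keratinocyte, fibroblast, leukocyte and endothelial cells. Some list genes enter the counts and are not reported here by name.

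Both groups carry replicate numbers 1 to 3. Deviations from the group means correlated between libraries of the same number at 0.334, 0.12 and 0.175, each over 0.1. The numbers were therefore treated as pairing in the alternative fits with a replicate block and in the differences within replicate numbers. All other fits, the main fit among them, and the permutation tests were unpaired. Libraries of different numbers reached 0.205, so apart from replicate 1 this pairing is weakly supported, and it comes from the values, not the labels. Alternatives were DESeq2, other size factors, upper-quartile scaling, counts without a filter or with a minimum of 10 per library, the replicate block, each library left out, replicates 2 and 3, counts divided by 2, and the longest transcript as gene length.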

Additional observations from a re-analysis of the deposited data

How the results depend on the processing

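With the replicate number as a block on all 6 libraries, METTL3 had a log2 fold change of 1.16, the median of the 7 tested genes was 0.17, 0 of them and 0 of the list genes were called, and on replicates 2 and 3 the block gave the same 4 calls. It raised the number of genes called there from 3362 to 5450. DESeq2, no filter on low counts and replicates 2 and 3 brought METTL3 under an adjusted p of 0.05, at log2 fold changes of 1.18, 1.18 and 1.28. Leaving out single libraries gave 1.13 to 1.23, and METTL3 passed without vector replicate 1 (1.23). The count of the 10 genes called was 2 with DESeq2, 3 with no filter and 4 in replicates 2 and 3, and 0 with each single library left out, where 367 genes in all were called without vector replicate 1 (1.62%). Over all genes, 280 were called by DESeq2 and 560 with no filter, against 0. The count of list genes called was 3 with DESeq2, 6 with no filter, 14 in replicates 2 and 3 and 0 to 5 with single libraries left out, the 5 without vector replicate 1. The median log2 fold change of the 7 tested genes, 0.14, ranged from 0.0051 to 0.44 with single libraries left out, the 0.44 again without vector replicate 1. KLK10 changed sign without METTL3 replicate 2 (range -0.172 to 0.024), and KLK11 without METTL3 replicate 2 (0.08), METTL3 replicate 3 (0.15) or vector replicate 1 (0.18), over a range of -0.41 to 0.18. The direction of KLK6, ST14, PRSS8, SPINT1 and SPINT2 held under all 14 alternatives, with log2 fold changes of -0.26 to -0.05, 0.36 to 0.66, 0.55 to 0.88, 0.77 to 1.154 and 0.0051 to 0.44. Their adjusted p ranged from 0.55 to 0.91 for KLK6, from 1.6e-05 to 0.904 for ST14, from 5.57e-06 to 0.904 for PRSS8, from 7.94e-09 to 0.904 for SPINT1 and from 0.00215 to 0.998 for SPINT2. The longest transcript as gene length kept the order of the 10 levels and moved the mean log2 ratio of PRSS8 to SPINT1 from -2.06 to -1.58 and that of PRSS8 to SPINT2 from -0.90 to -0.62. The causes were not tested.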

Other observations

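Markers of other cell types gave the following values. Of the 5 ovarian markers, WT1 and SOX17 were under 1 CPM in every library, PAX8 was at 6.38 to 11.7 CPM and MSLN at 14.2 to 26.0 CPM, and MSLN was called higher in replicates 2 and 3, 1 of 3 tested there, against 6.66% of all tested genes. MUC16 was at 49.4, 6.17 and 3.45 CPM in METTL3 replicates 1, 2 and 3 and at 7.20, 2.89 and 1.98 CPM in the vector replicates. Of the 7 keratinocyte markers, 5 were under 1 CPM in every library and LORICRIN was at 0, and the summed level was 29.1 to 32.9 CPM with METTL3 and 33.2 to 33.8 CPM with the vector, nearly all of it KRT10. Of the leukocyte markers, PTPRC and CD3E were at most 0.0708 CPM, while CD14 was at 7.02 to 11.4 CPM and LYZ was at 28.1 to 57.0 CPM and lower in replicates 2 and 3 (log2 fold change -0.92, adjusted p = 3.73e-07 from edgeR's test). Of the fibroblast markers 3 of 5, and of the endothelial markers 3 of 4, were under 1 CPM in every library, with summed levels of 9.07 to 20.1 CPM and 5.15 to 22.2 CPM. PECAM1 made up most of the endothelial sum, at 21.4 CPM in METTL3 replicate 1 and 4.67 to 9.30 CPM in the other libraries, and it was called higher in replicates 2 and 3 (log2 fold change 0.69, adjusted p = 0.00238 from edgeR's test).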
